A study of Mus musculus with 8 samples.

Results

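The mouse mitochondrial genome carries 37 genes, and all of them were described here across RNA libraries of naive CD8+ T cells. They were chosen by symbol, as every gene whose GRCm38 symbol starts with mt-, and they make up 37 of the 55573 gene IDs counted. 13 encode proteins of oxidative phosphorylation, 2 encode the ribosomal RNAs (rRNAs) of the mitochondrial ribosome and 22 encode transfer RNAs (tRNAs). The libraries were made from total RNA of naive CD8+ T cells, which are cytotoxic lymphocytes that have not met their antigen, sorted from spleen and lymph nodes of male C57BL/6 mice after magnetic enrichment for CD8a. 5 libraries are labelled Furin KO (replicate 1 at 7 weeks of age, replicates 2 to 5 at 8 weeks) and 3 are labelled WT (replicate 1 at 7 weeks, replicates 2 and 3 at 8 weeks). FURIN is a protease that cleaves precursor proteins in the secretory pathway. Neither the cells that lack it nor the allele or a Cre driver is named in the labels. They also do not say whether libraries stand for separate mice, and the p-values therefore reflect spread among libraries that could be technical.

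Total counts ran from 11308220 to 21040431 in the libraries labelled Furin KO and from 14463450 to 19159021 in WT. The targeted gene, Furin, was at 63.4, 86.3, 62.2, 58.0 and 76.6 CPM (counts per mapped total after TMM scaling) in the libraries labelled Furin KO and at 56.9, 66.7 and 66.9 CPM in WT. The whole-gene count was thus no lower under the label Furin KO, and it does not show which exons carry the reads, so every comparison below is one between labels. Cd8a, the CD8 alpha chain, averaged 1751 ± 111 CPM (SD, n = 5) in the libraries labelled Furin KO and 1583 ± 180 CPM (SD, n = 3) in WT. Of 9 naive CD8 T cell markers that include it, 6 had log2 fold changes (Furin KO over WT) above 0 and 3 below. The lowest was that of Il7r, -0.29, with means of 558 CPM in Furin KO and 685 CPM in WT. Its edgeR p was 0.0145 unadjusted and 0.9998 adjusted, and 0 of the 9 were called. Of 13 markers of other cell types, 7 were at 0 in every library, and the highest value of any was 1.74 CPM. When the libraries were grouped by the similarity of their counts into 3 sets, a number fixed beforehand, the sets were runs of consecutive titles. Each set holds both labels. The first holds replicate 1 of both, the second Furin KO replicates 2 and 3 with WT replicate 2, and the third Furin KO replicates 4 and 5 with WT replicate 3. The first set is thus the 7-week libraries, and its differences from the other sets cannot be told apart from age.

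Mitochondrial DNA is a small circle that is transcribed on both strands into long precursors, which are cut into single RNAs largely at the tRNAs that lie between the other genes. The protein genes encode subunits of respiratory complexes I (the mt-Nd genes), III (mt-Cytb) and IV (the mt-Co genes) and of the ATP synthase (the mt-Atp genes), which work together with many nuclear-encoded subunits. Naive T cells are quiescent and draw much of their energy from oxidative phosphorylation. Pieces of mitochondrial DNA have also been copied into the nuclear chromosomes, and reads from a close copy match more than 1 place in the genome.

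All 6 protein genes that the table listed at 0 lay in 1 stretch with a near-identical nuclear copy. 7 annotated pseudogenes on chromosome 1 (chr1:24611535-24616197, minus strand, GRCm38) align to the stretch chrM:6390-11042, which runs from within mt-Co1 to within mt-Nd4. Their alignments cover 4136 distinct bases of mitochondrial DNA with 2 differences and 0 gaps. 11 of the 37 genes lie wholly in this stretch. 9 of these 11 were listed at 0 in every library, among them all 6 protein genes there: mt-Co2, mt-Atp8, mt-Atp6, mt-Co3, mt-Nd3 and mt-Nd4l. All 7 protein genes that lie outside it or only partly in it had counts in every library. The 7 pseudogenes themselves held 13 counts over the 8 libraries. The labels do not say how reads that match several places were treated, so a value of 0 here is a listed value and says nothing of the level of these RNAs.

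The 2 differences and a more distant copy are shown in 60-base windows from the GENCODE transcripts on GRCm38, 5′ to 3′ along each gene, with every base that differs between gene and copy in capitals. mt-Nd3, a complex I subunit, is listed at 0 and differs from its copy Gm28438 only by T3C (the mt-Nd3 base first, counted from 1 at its first base) over 345 aligned bases. These are chrM:9459-9518 on the plus strand and chr1:24613060-24613119 on the minus strand.
mt-Nd3: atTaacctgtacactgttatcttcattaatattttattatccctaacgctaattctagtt
Gm28438: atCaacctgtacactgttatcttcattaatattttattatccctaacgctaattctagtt
The last 483 bases of mt-Co1, the core subunit of complex IV, differ from Gm29216 only by A1066T, near the edge of the copied stretch (chrM:6390-6449, plus strand, and chr1:24616129-24616188, minus strand).
mt-Co1: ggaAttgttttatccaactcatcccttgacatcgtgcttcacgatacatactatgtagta
Gm29216: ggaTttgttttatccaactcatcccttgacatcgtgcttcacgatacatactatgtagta
mt-Nd2, a complex I subunit outside the stretch with high counts in every library, differs from Gm13339 at 17 of 510 aligned bases, and 3 of them fall in this window (chrM:4667-4726, plus strand, and chr2:22590249-22590308, minus strand).
mt-Nd2: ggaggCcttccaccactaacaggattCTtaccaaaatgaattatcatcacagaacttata
Gm13339: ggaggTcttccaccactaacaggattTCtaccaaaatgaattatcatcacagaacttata

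mt-Co2, mt-Atp6, mt-Co3 and mt-Nd4l each matched a pseudogene of chromosome 1 at 100% identity over all but 1 to 3 of their bases, and mt-Nd3 at 99.7%. For mt-Atp8, the small ATP synthase subunit whose last 43 bases are also the start of mt-Atp6, an annotated gene of that copy covers only those 43 bases, which match at 100%. Both mitochondrial genes of the ATP synthase thus lie in the copied stretch, and complex V has no measured member, while complex IV is measured by mt-Co1 alone. The nearest full-length copy of a gene with counts was Gm13340 on chromosome 2, which is 97.6% identical to mt-Co1 over 1545 bases and had 218 counts in all libraries together. mt-Co2, listed at 0, has a copy on chromosome 2, Gm13341, that is 95.9% identical over 684 bases and had 249 counts. AC154652.2, 74.9% identical to part of mt-Cytb, had 788 counts. Gm11407, 92.3% identical to part of mt-Nd5, had 114. Pseudogenes aligned to the 37 genes together held 0.0368% as many counts as the 37 genes.

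**Figure D1:**
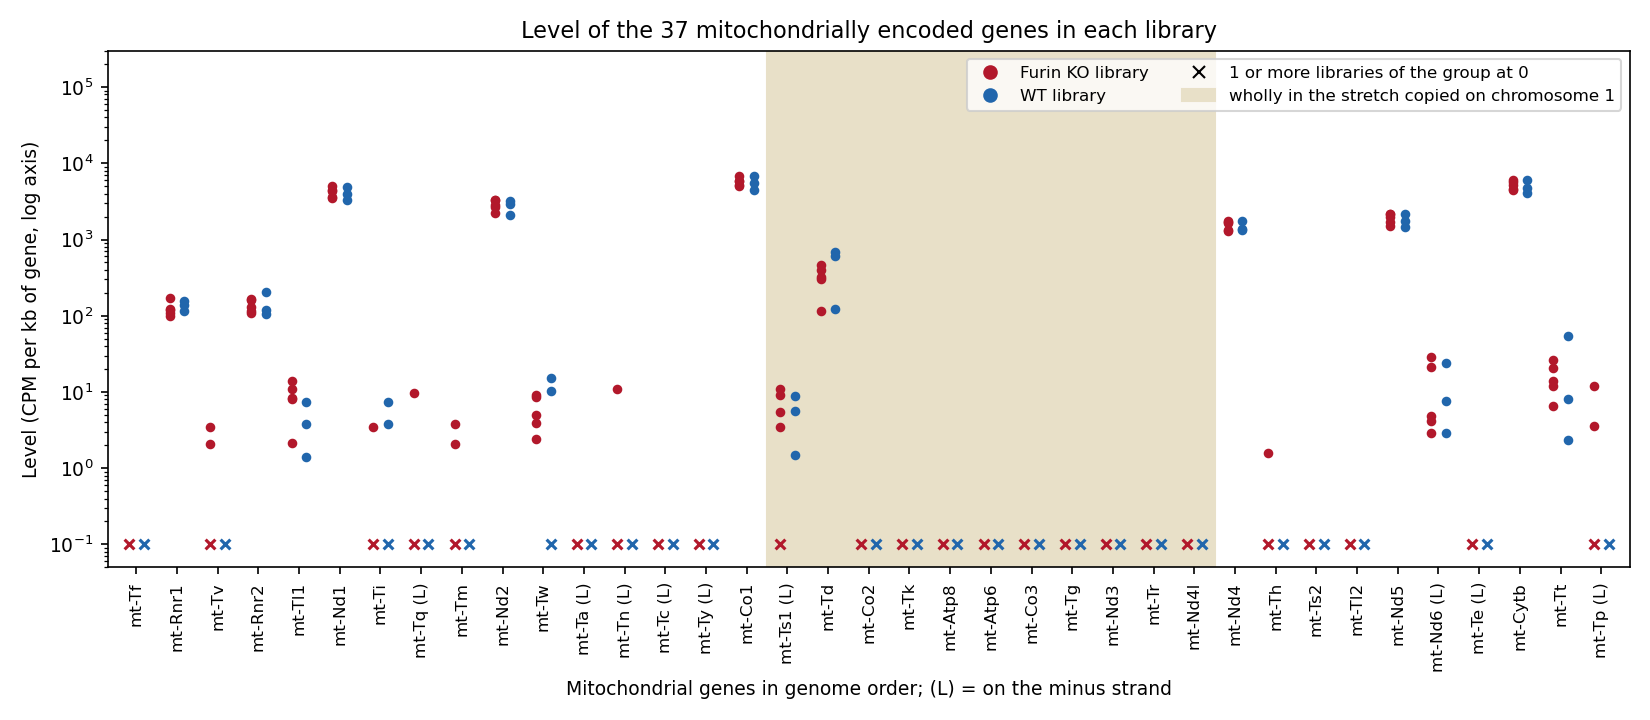
The level of each of the 37 mitochondrial genes in CPM per kb of gene (log axis), in genome order, with 1 point for each library labelled Furin KO (red, n = 5) or WT (blue, n = 3); a cross marks that at least 1 library of the group is at 0, and shading marks the 11 genes wholly in the stretch copied on chromosome 1. 6 protein genes stand far above the rRNA genes in every library, and the shaded genes are at 0 apart from mt-Ts1 and mt-Td.

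Outside the copied stretch, 6 protein genes were among the most abundant RNAs of the cells. Per kb of exon, mt-Co1 ranked 1 and mt-Cytb, the mitochondrial subunit of complex III, ranked 2 among 12488 tested genes with a length, and mt-Nd1, mt-Nd2, mt-Nd5 and mt-Nd4 ranked 5, 7, 13 and 16. mt-Co1 averaged 5781 CPM per kb in the libraries labelled Furin KO and 5569 in WT, and mt-Cytb averaged 5192 CPM per kb in Furin KO and 4978 in WT. mt-Nd1 stood at 4167 CPM per kb in Furin KO and 4014 in WT, mt-Nd2 at 2845 in Furin KO and 2737 in WT, and mt-Nd5 at 1914 in Furin KO and 1811 in WT. All 3 encode subunits of complex I, as does mt-Nd4. mt-Nd4 stood at 1533 CPM per kb in Furin KO and 1489 in WT, but 63.6% of its length lies in the copied stretch. Divided by its remaining length alone it would be at 4208 CPM per kb in Furin KO and 4089 in WT, close to mt-Nd1, and mt-Co1, with 31.3% of its length in the stretch, would be at 8410 CPM per kb in Furin KO and 8102 in WT. Levels per kb of these 2 genes therefore depend on which length is used, whereas their fold changes between labels do not.

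The share of all counts that fell on the mitochondrial genes did not separate the labels. It was 3.03%, 2.46%, 3.21%, 2.83% and 2.35% in Furin KO replicates 1 to 5 and 2.18%, 2.63% and 3.22% in WT replicates 1 to 3. These are shares of counts as listed. 6 protein genes of the copied stretch were listed at 0, and mt-Co1 and mt-Nd4 lie partly in it. The mitochondrial share of the RNA itself was thus not measured. The lowest and the highest share were both in libraries labelled WT, so that the range of WT enclosed that of Furin KO. The means were 2.78% ± 0.367 (SD, n = 5) in Furin KO and 2.67% ± 0.523 (SD, n = 3) in WT. In the shallowest library, Furin KO replicate 5, the exact 95% binomial (Clopper-Pearson) interval was 2.34% to 2.36%, which covers counting error only. Within the first set of libraries the share was 3.03% in Furin KO and 2.18% in WT, within the second it averaged 2.83% in Furin KO against 2.63% in WT, and within the third 2.59% in Furin KO against 3.22% in WT. The direction thus differed between the sets, with 1 WT library in each. Furin KO replicate 5 and WT replicate 1, with the lowest totals, also had the 2 lowest shares, and the part of depth in this was not tested.

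**Figure D2:**
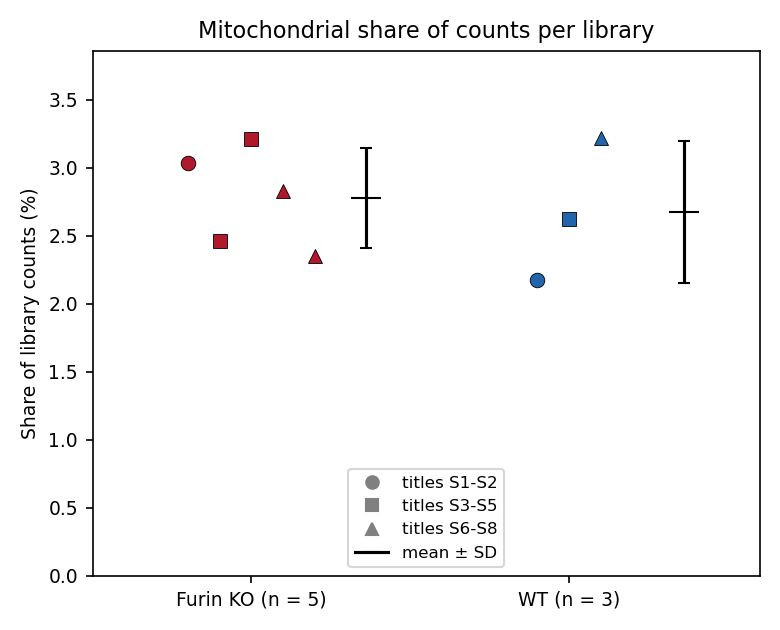
Counts on the 37 mitochondrial genes as a percentage of all counts in each library, for libraries labelled Furin KO (left, n = 5) and WT (right, n = 3); marker shapes give the 3 runs of consecutive titles, and bars show mean ± SD. The Furin KO libraries lie between 2.35% and 3.21%, inside the WT range of 2.18% to 3.22%. Counts are as listed, with 6 protein genes of the copied stretch at 0 in every library.

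14 of the 37 genes had enough counts to be tested, 7 protein genes, 2 rRNA genes and 5 tRNA genes. Of the others, 16 were listed at 0 in every library and 7 had at most 19 counts in all. 0 of the 14 differed between Furin KO and WT in the quasi-likelihood test of edgeR (Benjamini-Hochberg adjusted p under 0.05, adjusted over all 12500 genes tested), which called 4 genes in all (0.032%). 0 of the 14 had an unadjusted p under 0.05, against 401 of all genes (3.21%), and neither DESeq2, which called 0.12% of all genes, nor limma-voom, which called 0.04%, called any. At 0 of the 14 were the labels without overlap, against 2.9% of all genes tested. The median log2 fold change of the 14 was 0.05, beside 0.00 over all genes tested (-0.000682). These 14 are the genes with enough counts and do not stand for all 37.

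At each of the 6 abundant protein genes the labels overlapped, and the spread between libraries was larger than the difference between labels. The complex IV gene mt-Co1 was at 9136, 8085, 10658, 9075 and 7702 CPM in the libraries labelled Furin KO and at 6861, 8527 and 10426 CPM in WT. The complex III gene mt-Cytb was at 6588, 5110, 6876, 5908 and 5215 CPM in Furin KO and at 4599, 5477 and 7010 CPM in WT. For both, WT replicate 1 was the lowest library, and the labels overlapped. Of the complex I genes, mt-Nd1 was at 4769, 3467, 4296, 4086 and 3320 CPM in Furin KO and at 3126, 3736 and 4662 CPM in WT. mt-Nd2 was at 3386, 2739, 3405, 2954 and 2281 CPM in Furin KO and at 2158, 3004 and 3362 CPM in WT. Furin KO replicate 1 was the highest library at mt-Nd1, and WT replicate 1 the lowest at both. mt-Nd4 was at 2402, 1821, 2333, 2238 and 1770 CPM in Furin KO and at 1832, 1923 and 2403 CPM in WT, and mt-Nd5 was at 3933, 3126, 3971, 3651 and 2775 CPM in Furin KO and at 2703, 3207 and 4001 CPM in WT. At both, WT replicate 3 was the highest library, and the labels overlapped.

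The log2 fold changes of these 6 genes, Furin KO over WT, lay between 0.04 (mt-Nd4) and 0.08 (mt-Nd5), with standard errors of 0.11 to 0.13 (edgeR adjusted p = 0.9998 for each). All 6 intervals (95%) together reached from 0.854-fold to 1.27-fold, which bounds the difference but does not show that the levels are equal. In the 8-week libraries alone all 6 fold changes were below 0, from -0.16 for mt-Nd2 to -0.084 for mt-Nd4, as they were without WT replicate 1. The spread over all 8 libraries was 13.4% to 16.8% as a coefficient of variation, beside a median of 15.5% over all genes tested. Nuclear genes within 2-fold of the level of mt-Nd4, of which there were 68, had a median of 9.15%, against 13.4% for mt-Nd4 itself. For mt-Nd1 it was 15.7%, against a median of 9.11% in 22 nuclear genes of like level.

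**Figure D3:**
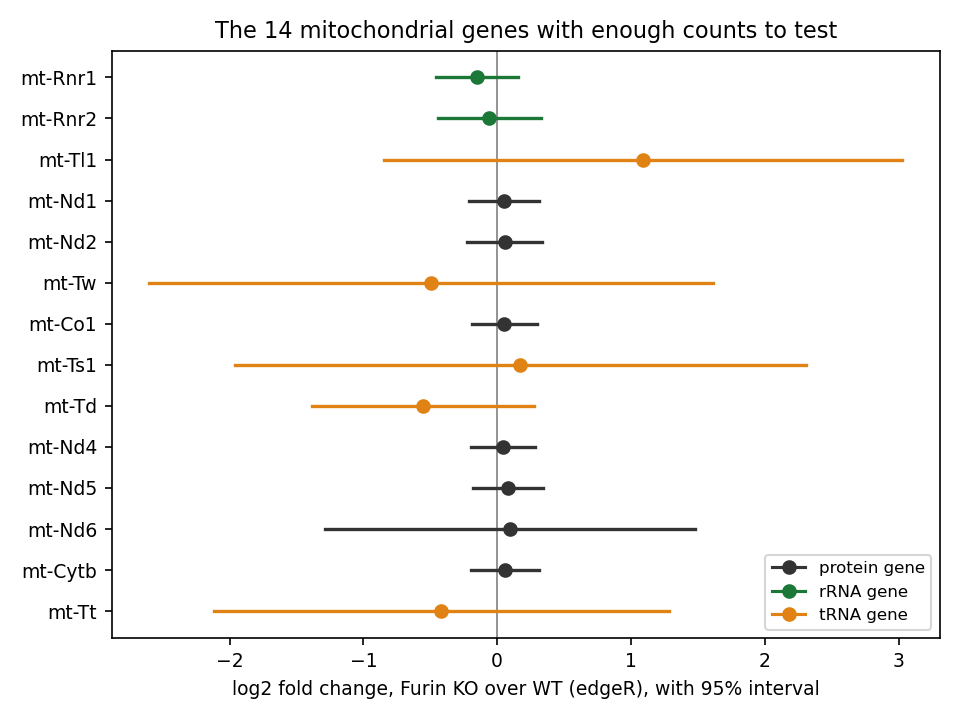
The log2 fold change, libraries labelled Furin KO over WT, of the 14 mitochondrial genes with enough counts to test (points, edgeR), with 95% intervals (lines), in genome order from the top. Intervals of the 6 abundant protein genes are narrow and include 0, and those of mt-Nd6 and the tRNA genes span more than 1 log2 unit.

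Within the mitochondrial counts, the proportion of each of the 6 abundant protein genes had a ratio of highest to lowest library between 1.08 (mt-Cytb) and 1.17 (mt-Nd2). mt-Co1 made up 32.2% ± 1.41 of them in Furin KO (SD, n = 5) and 32.2% ± 0.366 in WT (SD, n = 3), and mt-Cytb 21.4% ± 0.640 in Furin KO and 21.3% ± 0.378 in WT. mt-Nd1 made up 14.3% ± 0.775 in Furin KO and 14.4% ± 0.118 in WT. mt-Nd5 made up 12.5% ± 0.409 in Furin KO and 12.4% ± 0.145 in WT. mt-Nd2 made up 10.6% ± 0.546 in Furin KO and 10.6% ± 0.756 in WT, and mt-Nd4 7.602% ± 0.265 in Furin KO and 7.74% ± 0.643 in WT. At all 6 genes the labels overlapped, and the means of the labels lay within 0.178 percentage points of each other. In Furin KO replicate 1 mt-Co1 made up 29.8% and mt-Nd1 15.6%, against 31.8% to 33.4% and 13.5% to 14.5% in the other 7 libraries. In WT replicate 1 mt-Nd4 made up 8.49%, against 7.30% to 7.90% in the other 7. All these proportions are of counts as listed, where 6 other protein genes were at 0. Of the length of mt-Nd4 63.6% lies in the copied stretch, and of mt-Co1 31.3%. The make-up of the mitochondrial RNA itself was thus not measured.

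The 2 rRNA genes stood far below the protein genes. mt-Rnr1, the rRNA of the small mitochondrial ribosome subunit, was at 115, 103, 162, 116 and 93.6 CPM in the libraries labelled Furin KO and at 112, 131 and 150.3 CPM in WT. mt-Rnr2, the rRNA of the large subunit, was at 265, 174, 204, 257 and 185 CPM in Furin KO and at 186, 166 and 326 CPM in WT. Per kb these are means of 124 CPM in Furin KO and 137 in WT for mt-Rnr1 and of 137 in Furin KO and 143 in WT for mt-Rnr2, where mt-Nd1, the next protein gene along the same strand, stands at 4167 in Furin KO and 4014 in WT. Whether RNA classes were selected or depleted is not stated in the labels. The log2 fold changes were -0.15 (SE 0.15) for mt-Rnr1 and -0.06 (SE 0.18) for mt-Rnr2 (edgeR adjusted p = 0.9998 for each), and the labels overlapped at both.

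The ratio of the 2 rRNAs, which lie next to each other with the short tRNA gene mt-Tv between them, lay in different ranges in the second and the third library set, while the labels overlapped. mt-Rnr2 had 2.32, 1.68, 1.26, 2.21 and 1.97 counts for each count of mt-Rnr1 in Furin KO replicates 1 to 5, and 1.67, 1.27 and 2.17 in WT replicates 1 to 3. In the second set the ratio was 1.26 to 1.68 and in the third 1.97 to 2.21, with both labels in each. The libraries of the second set also had low Fos, an immediate early gene, at 85.8 to 204 CPM against 801 to 1074 CPM in the other 5. WT replicate 1, in the first set, had a ratio of 1.67, within the range of the second set, and Fos at 807 CPM, so low ratios and low Fos did not coincide in every library. The sets match a grouping by the similarity of these same counts, so differences between sets are not independent of that grouping. Whether the state or handling of the cells bears on the ratio was not tested.

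**Figure D4:**
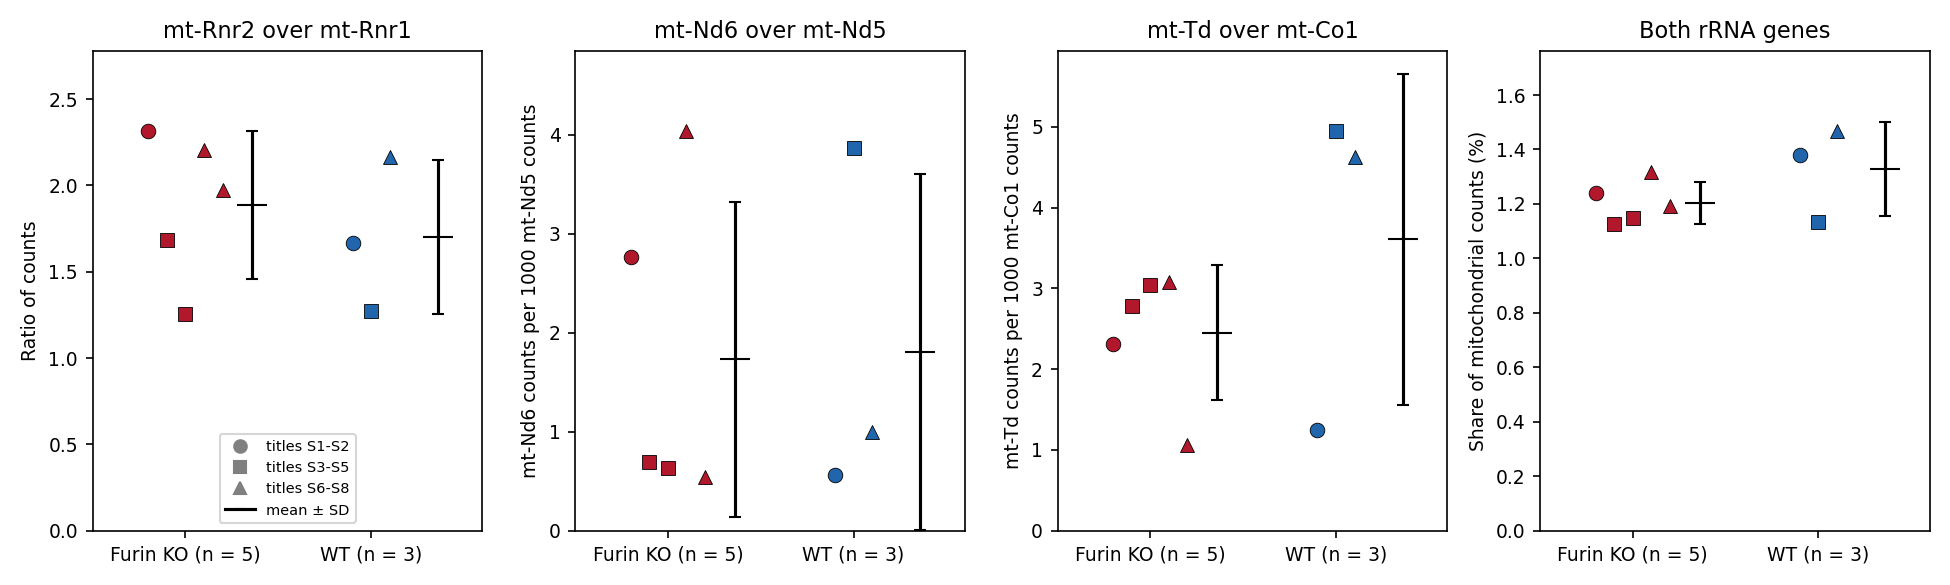
4 measures of the make-up of the mitochondrial counts in each library, for libraries labelled Furin KO (left in each panel, n = 5) and WT (right, n = 3), with marker shapes for the runs of titles and bars for mean ± SD: mt-Rnr2 counts over mt-Rnr1 counts, mt-Nd6 counts per 1000 mt-Nd5 counts, mt-Td counts per 1000 mt-Co1 counts, and the share of both rRNA genes in percent. The labels overlap in all 4, and mt-Nd6 stands above 2.7 in 3 libraries and below 1 in the other 5.

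mt-Nd6, a complex I subunit, is the only protein gene on the minus strand, and it was both the rarest protein RNA with counts and the most variable. It was at 10.9, 2.15, 2.51, 14.8 and 1.49 CPM in the libraries labelled Furin KO and at 1.51, 12.4 and 3.99 CPM in WT. 3 libraries thus stood high, Furin KO replicates 1 and 4 and WT replicate 2, 1 from each library set, and the other 5 were at most at 3.99 CPM. Relative to its neighbour mt-Nd5 it had 2.77, 0.689, 0.632, 4.04 and 0.538 counts per 1000 in Furin KO and 0.558, 3.87 and 0.997 in WT. The log2 fold change between labels was 0.10 with an interval of -1.29 to 1.48 (SE 0.66, edgeR adjusted p = 0.9998), and it ranged from -0.47 to 1.21 when single libraries were left out. Of 1921 nuclear genes within 2-fold of its level, 99.9% had a lower coefficient of variation than the 88.7% of mt-Nd6. In the same 3 libraries Malat1, a long RNA of the nucleus that was chosen after its values were seen, was also highest, at 1663, 1029 and 780 CPM in Furin KO replicates 1 and 4 and WT replicate 2 against 311 to 608 CPM in the other 5. Its part in the result was not tested.

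The 3′ ends of mt-Nd5 and mt-Nd6 overlap on opposite strands by 14 bases, and the labels do not state whether counting used strand. The last 50 bases of each gene are shown 5′ to 3′ on its own strand, with the shared bases in capitals, which are reverse complements of each other (chrM:13516-13565, plus strand, and chrM:13552-13601, minus strand, GRCm38, GENCODE transcripts).
mt-Nd5: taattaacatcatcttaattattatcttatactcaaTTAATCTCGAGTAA
mt-Nd6: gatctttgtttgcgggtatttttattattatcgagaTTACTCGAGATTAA
Without strand, reads of mt-Nd6 and of RNA copied from the opposite strand across mt-Nd6 cannot be told apart. The other 8 genes of the minus strand are tRNA genes and had at most 16 counts in any library. 4 of them had any count. mt-Tq and mt-Tn, the tRNA genes for glutamine and asparagine, had 14 and 16 counts in Furin KO replicate 1 and 0 in the other 7 libraries. mt-Tp, for proline, had 5 and 9 counts in Furin KO replicates 4 and 5 and 0 in the other 6. mt-Ts1, for a serine, had 13, 16, 7, 5 and 0 counts in Furin KO and 9, 2 and 7 in WT. These genes were thus not all highest in the libraries with high mt-Nd6.

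The tRNA genes were almost unseen, with 1 exception. 10 of the 22 were listed at 0 in every library, and 2 reached a mean of 10 counts. For the 7 of these 10 outside the copied stretch, a count of 0 allows up to 3 counts, which is 0.143 to 0.265 CPM across the libraries and covers counting error only. The other 3, mt-Tk, mt-Tg and mt-Tr, lie in the stretch, where no such limit was set. mt-Td, the tRNA gene for aspartate between mt-Co1 and mt-Co2, was the exception. It had 436, 469, 607, 586 and 93 counts in Furin KO replicates 1 to 5 and 125, 810 and 859 counts in WT replicates 1 to 3. It lies wholly in the stretch copied on chromosome 1, yet it was counted where its neighbour mt-Co2 was at 0. The bases between the annotated pseudogenes of the copy were not compared here. Its 70 bases (chrM:6942-7011, plus strand, GRCm38, GENCODE transcript) are given with the anticodon in capitals.
mt-Td: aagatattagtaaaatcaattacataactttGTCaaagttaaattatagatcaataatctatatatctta

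In CPM, mt-Td was at 21.1, 22.5, 32.4, 27.9 and 8.17 in Furin KO and at 8.57, 42.2 and 48.3 in WT. Furin KO replicate 5 and WT replicate 1 were the lowest, and these 2 libraries also have the lowest total counts of the 8, 11308220 and 14463450. The part of depth in this was not tested. Per 1000 counts of mt-Co1, the gene before it on the same strand, mt-Td had 2.31, 2.78, 3.04, 3.07 and 1.06 counts in Furin KO and 1.25, 4.95 and 4.63 in WT. In the first library set this ratio was higher in Furin KO, 2.31 against 1.25 in WT. It was lower in the second, with a mean of 2.91 against 4.95, and in the third, with 2.07 against 4.63. The log2 fold change was -0.55 with an interval of -1.38 to 0.27 (SE 0.39, edgeR adjusted p = 0.9998; exact two-sided permutation p = 0.625, of which the smallest possible is 0.0179). It was below 0 in all 18 alternative fits, which reuse the same libraries. The lowest was -0.998 without WT replicate 1 and the highest -0.18 without WT replicate 3. The lowest adjusted p of mt-Td was 0.173, in the edgeR fit with no filter beyond 1 count, and in the other alternatives it was at least 0.949. mt-Tt, the tRNA gene for threonine after mt-Cytb, had 19, 29, 15, 37 and 5 counts in Furin KO and 8, 3 and 64 counts in WT. Its log2 fold change was -0.42 (SE 0.81) and turned to 1.61 without WT replicate 3. mt-Tl1, mt-Tw and mt-Ts1, the tRNA genes for a leucine, for tryptophan and for a serine, had at most 22 counts in any library, and their log2 fold changes of 1.09, -0.49 and 0.17 had standard errors of 0.92 to 1.01.

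Nuclear genes that act on mitochondrial DNA, RNA, biogenesis or protein assembly were set beside the mitochondrial genes in 4 lists. Of their 84 genes, 82 were tested. 0 of the 82 were called between Furin KO and WT by the same edgeR test (background 0.032%), by DESeq2 or by limma-voom. 2 had an unadjusted p under 0.05, which is 2.44% of them against 3.21% of all genes, and 1 lay without overlap of the labels (1.22% against 2.9%). 52 had log2 fold changes above 0 and 30 below 0.

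Of the 22 genes of mitochondrial transcription and DNA maintenance, 10 were above 0 and 12 below, with a median log2 fold change of -0.02. Polrmt, the mitochondrial RNA polymerase, averaged 78.1 ± 3.81 CPM in Furin KO (SD, n = 5) and 79.9 ± 4.58 CPM in WT (SD, n = 3), a log2 fold change of -0.03. Tfam, which packs mitochondrial DNA and starts its transcription, averaged 69.5 ± 10.8 CPM in Furin KO and 69.2 ± 4.39 CPM in WT, a log2 fold change of 0.01. These 2 genes were chosen after their values were seen. Top1mt, the mitochondrial topoisomerase, had the lowest unadjusted p of this list, with 22.9 ± 4.12 CPM in Furin KO and 17.9 ± 2.42 CPM in WT (log2 fold change 0.35, edgeR adjusted p = 0.9998). Polg2, the accessory subunit of the mitochondrial DNA polymerase, had a log2 fold change of 0.27 and Mterf1b, of a family of transcription termination factors, one of -0.53, and neither passed.

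Of the 29 tested genes of mitochondrial RNA processing and stability, 21 were above 0 and 8 below, with a median of 0.02. Fastkd2, an RNA-binding protein known from human cells to bind the large mitochondrial rRNA, was the 1 gene without overlap of the labels, at 39.3, 36.05, 34.3, 33.1 and 37.1 CPM in Furin KO and at 25.6, 29.6 and 31.4 CPM in WT. Its log2 fold change was 0.32 (SE 0.13, edgeR adjusted p = 0.9998; exact two-sided permutation p = 0.0179, the smallest that 56 arrangements allow). It did not pass over all genes, and the nearest values of the labels were 33.1 CPM in Furin KO and 31.4 CPM in WT. Lrpprc, which stabilises mitochondrial mRNAs and was also chosen after its values were seen, averaged 101 ± 9.95 CPM in Furin KO and 98.5 ± 4.44 CPM in WT. Fastkd3, of the same family as Fastkd2, had a log2 fold change of -0.31 and Mtpap, the mitochondrial poly(A) polymerase, one of 0.20, and neither passed.

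Of the 9 tested activators of mitochondrial biogenesis, 6 were above 0 and 3 below, with a median of 0.09. Nrf1, a transcription factor of many nuclear genes for mitochondrial proteins, averaged 61.1 ± 3.95 CPM in Furin KO and 74.0 ± 10.6 CPM in WT (log2 fold change -0.27, SE 0.11, edgeR adjusted p = 0.9998). Its lowest WT value, 61.8 CPM, lay below 2 of the 5 Furin KO values. Myc, a growth factor-induced transcription factor, had a log2 fold change of 0.33. Ppargc1b, a coactivator of nuclear genes for mitochondrial proteins, had one of 0.30, and neither passed. Of the 22 assembly partners of the mitochondrially encoded proteins, 15 were above 0 and 7 below, with a median of 0.07. Cox15, an enzyme of heme a synthesis for complex IV, had a log2 fold change of 0.26, Taco1, a translational activator of mt-Co1, one of 0.24 and Cox11, a copper chaperone of complex IV, one of -0.22, and none of these 3 passed.

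**Figure D5:**
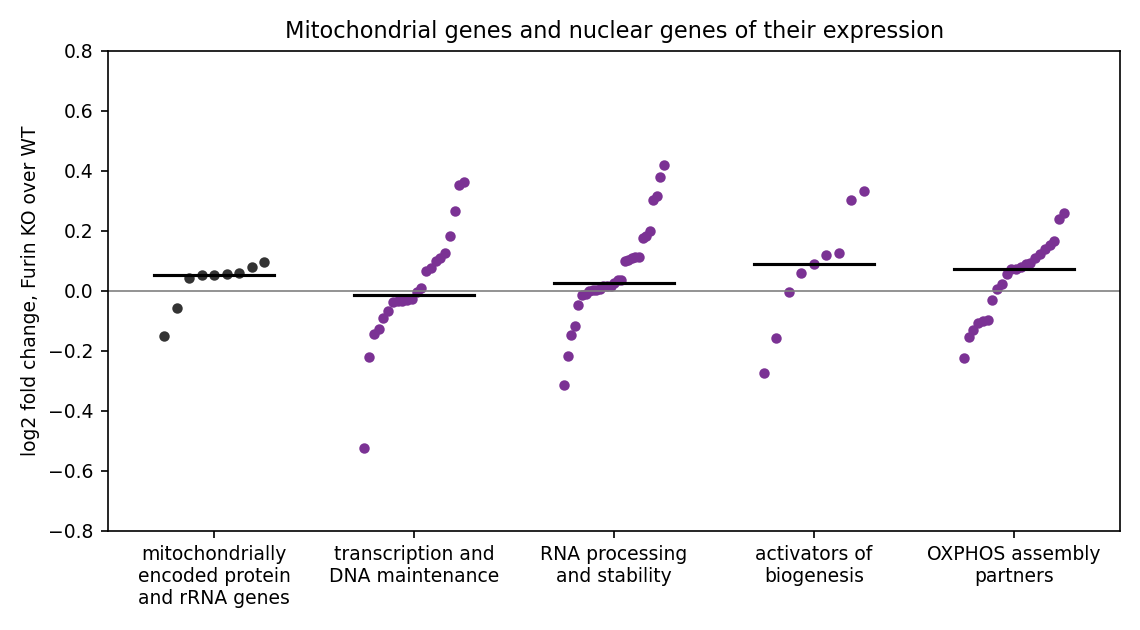
Log2 fold changes, libraries labelled Furin KO over WT, of the 9 tested mitochondrial protein and rRNA genes and of the tested genes of 4 nuclear lists, each point a gene in rising order and each black line a median. The medians of the nuclear lists lie between -0.02 and 0.09, and no gene shown was called.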

How the data were processed

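1 table of unnormalised counts, as whole numbers for each gene in each library, was deposited. Per the submitters' processing notes, FastQC, Trim Galore, STAR and DESeq2 1.24.0 were named, with genome build GRCm38; the counting program, annotation, strand setting and handling of reads that match several places are not given in the labels. Columns were matched to samples by title, and replicates were numbered within each label.

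Symbols and coordinates came from GENCODE M21 (GRCm38): 55394 of 55573 IDs matched. Under R 4.3.3, the label was tested without covariates on 12500 genes with the two-sided quasi-likelihood test of edgeR 4.0.16, after filterByExpr and TMM scaling (limma 3.58.1 for voom). Called genes have an adjusted p (Benjamini-Hochberg) below 0.05. CPM uses TMM-scaled library sizes. Exact two-sided permutation tests used log2(CPM + 1) over 56 arrangements. The fit was tested on simulated data. Nuclear copies were found by aligning GENCODE transcripts with BLAST 2.17.0 (E-value at most 1e-10). DESeq2 1.42.0 and limma-voom were alternatives, with other scalings, filters and covariates, the 8-week libraries alone, and each library left out.

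The protein and rRNA genes and tRNA genes with a mean of at least 10 counts were named, and from each nuclear list the 3 genes of lowest unadjusted p. The genes and lists were chosen with earlier results of these data known. Summed shares carry no p-value. The binomial interval of the share and the floors cover counting error only. Intervals of the log2 fold changes come from the quasi-likelihood fit and also take in the spread between libraries. No 2 libraries agreed within sampling noise (chi-square per degree of freedom at least 11.3).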

Additional observations from a re-analysis of the deposited data

How the results depend on the processing

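0 of the mitochondrial genes were called in any of the 18 alternative fits. The count of all genes called, 4, was 38 with no filter beyond 1 count, 15 with DESeq2 and 12 with the library set as a factor, and 3 to 5 with single libraries left out. The Furin KO minus WT difference in the mitochondrial share, 0.103 percentage points, was -0.145 to 0.376 with single libraries left out and -0.209 in the 8-week libraries alone, within the pooled SD of 0.425. Of 246 log2 fold changes under the alternatives, 31 changed sign and none was called; the cause was not tested.

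In the 8-week libraries alone the log2 fold changes were -0.15 for mt-Nd1, -0.16 for mt-Nd2, -0.094 for mt-Co1, -0.084 for mt-Nd4, -0.093 for mt-Nd5, -0.63 for mt-Nd6 and -0.11 for mt-Cytb. With the library set as a factor mt-Nd6 was at -0.012, mt-Tw at 0.033 and mt-Tt at 0.10, and by limma-voom mt-Tw was at 0.68 and mt-Tt at 0.58. With single libraries left out the log2 fold changes ranged from -0.081 to 0.22 for mt-Co1, -0.068 to 0.24 for mt-Cytb, -0.071 to 0.22 for mt-Nd1, -0.10 to 0.20 for mt-Nd2, -0.030 to 0.17 for mt-Nd4, -0.042 to 0.24 for mt-Nd5, -0.47 to 1.21 for mt-Nd6, -0.24 to 0.30 for mt-Rnr2, -0.29 to 0.72 for mt-Ts1, -0.95 to 1.61 for mt-Tt and -1.09 to 0.24 for mt-Tw. The range of mt-Ts1 leaves out the fits without Furin KO replicate 1 and without Furin KO replicate 2, where it was not tested. It was tested in 14 of the 18 alternatives. No paired analysis was possible because the labels give no replicate numbers that the 2 groups share; the library sets, each with both labels, were used as a factor in the fit given above.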
